A study of Mus musculus with 7 samples.

Results

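The genes described here are the matrix metalloproteinases, the secreted ADAMTS proteinases and the tissue inhibitors of metalloproteinases (TIMPs), measured in bleomycin-treated mouse skin with and without OX40L. They were taken from the deposited value table by gene symbol, as Mmp or Adamts followed by a digit and Timp1 to Timp4, with the ADAMTS-like genes left out. The rule found 44 genes, 22 Mmp, 18 Adamts and 4 Timp, among 23185 probe sets with 1 gene symbol. Each of the 44 had a single probe set, as did every other gene symbol in the table.

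The study compared genotypes of male C57BL/6 mice aged 9 weeks: 4 samples labelled ox40l-/- (knockout) and 3 labelled ox40l+/+ (wild type), and the words knockout and wild type stand for these labels. OX40L is the product of Tnfsf4, a ligand that co-stimulates T cells through its receptor OX40. All 7 samples were lesional skin from animals given bleomycin, an agent that induces skin fibrosis on repeated injection, for 3 weeks. No untreated skin was among them, so a response to bleomycin could not be measured. The labels name no promoter, Cre line or breeding scheme. They do not tell if every sample is its own animal, so a p-value here covers only the scatter among these arrays, some of which may be technical.

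Matrix metalloproteinases are zinc endopeptidases made as inactive precursors, and between them they cleave collagens, gelatins, elastin, proteoglycans and laminins. ADAMTS proteinases are related zinc enzymes that trim procollagens, cut large proteoglycans such as versican and aggrecan, or cleave cartilage oligomeric matrix protein and von Willebrand factor. TIMPs bind the active enzymes and block them. In fibrotic skin the balance between matrix synthesis and this proteolysis sets how much collagen stays, and transcript levels do not show how much of an enzyme is active.

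Values are log2 expression values, and differences are knockout minus wild type on that scale with limma's standard error (SE). That SE, and the p-value with it, also draw on the variance of the other genes, not on the gene's own spread alone. Probe sets bind with different efficiency, so a value says nothing about which gene had more transcript. The median of all values on the 7 arrays, 3.6, serves only as a mark for dim probe sets: 16 of the 44 genes had a mean above it. In bulk skin, fewer cells of a type and less RNA per cell cannot be told apart.

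The targeted gene did not check the labels. Tnfsf4 was at 2.53, 2.60 and 3.65 on wild type replicates 1, 2 and 3 and at 3.35, 2.82, 2.81 and 2.81 on knockout replicates 1, 2, 3 and 4, so it was not lower in knockout (difference 0.020, SE 0.31). It is a dim probe set, and whether it lies in the deleted part of the gene is not given in the sources used here. Wild type replicates 1 and 3 stood apart from the other 5 arrays, and this touches nearly every result. Over the 23185 probe sets with 1 gene symbol, their values correlated with those of the other 5 arrays at Pearson's r of 0.859 to 0.910. The other 5 correlated with each other at 0.951 to 0.966 (across genes, which are not independent replicates). Wild type replicate 1 had the widest distribution of values (SD 1.72) and replicate 3 the narrowest (SD 1.22), against SDs of 1.38 to 1.48 elsewhere. Epidermal keratinocyte markers chosen to check the tissue label (Krt5, Krt14, Krt1, Krt10, Lor and Ivl) were all above the median of all values, with mean levels of 6.91 to 8.53 over the 7 arrays. The 7 skeletal muscle markers were above it as well, at mean levels of 8.30 to 10.1, so the samples held muscle RNA beside skin RNA.

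No gene of the 44 had a genotype difference that passed adjustment. In limma with Benjamini-Hochberg adjustment over all 23185 genes, 0 of the 44 passed an adjusted p of 0.05, where 0.00431% of all genes did, and the lowest adjusted p among them was 0.9995. At an unadjusted p under 0.05 there was 1, Mmp28, beside 1.88% of all genes. The genotypes did not overlap in 2 of the 44, Mmp28 (higher in knockout) and Adamts9 (lower), beside 1.91% of all genes. Of the 44 differences, 23 were above 0, beside 51.7% of all genes, and their median was 0.017, beside 0.0096 over all genes. With 1 wild type array left out these counts moved, and so did those of all genes. Without wild type replicate 1, 13 of the 44 differences were above 0, beside 46.1% of all genes, and without replicate 3 there were 28, beside 58.9%. Genotypes did not overlap in 5, 4 and 10 of the 44 without wild type replicates 1, 2 and 3, beside 7.84%, 8.59% and 21.4% of all genes. The median size of a difference regardless of sign was 0.10, against 0.16 over all genes. The 95% confidence interval lay within a 2-fold change in either direction for 34 of the 44, which is 77.3%, beside 73.7% of all genes.

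**Figure D1:**
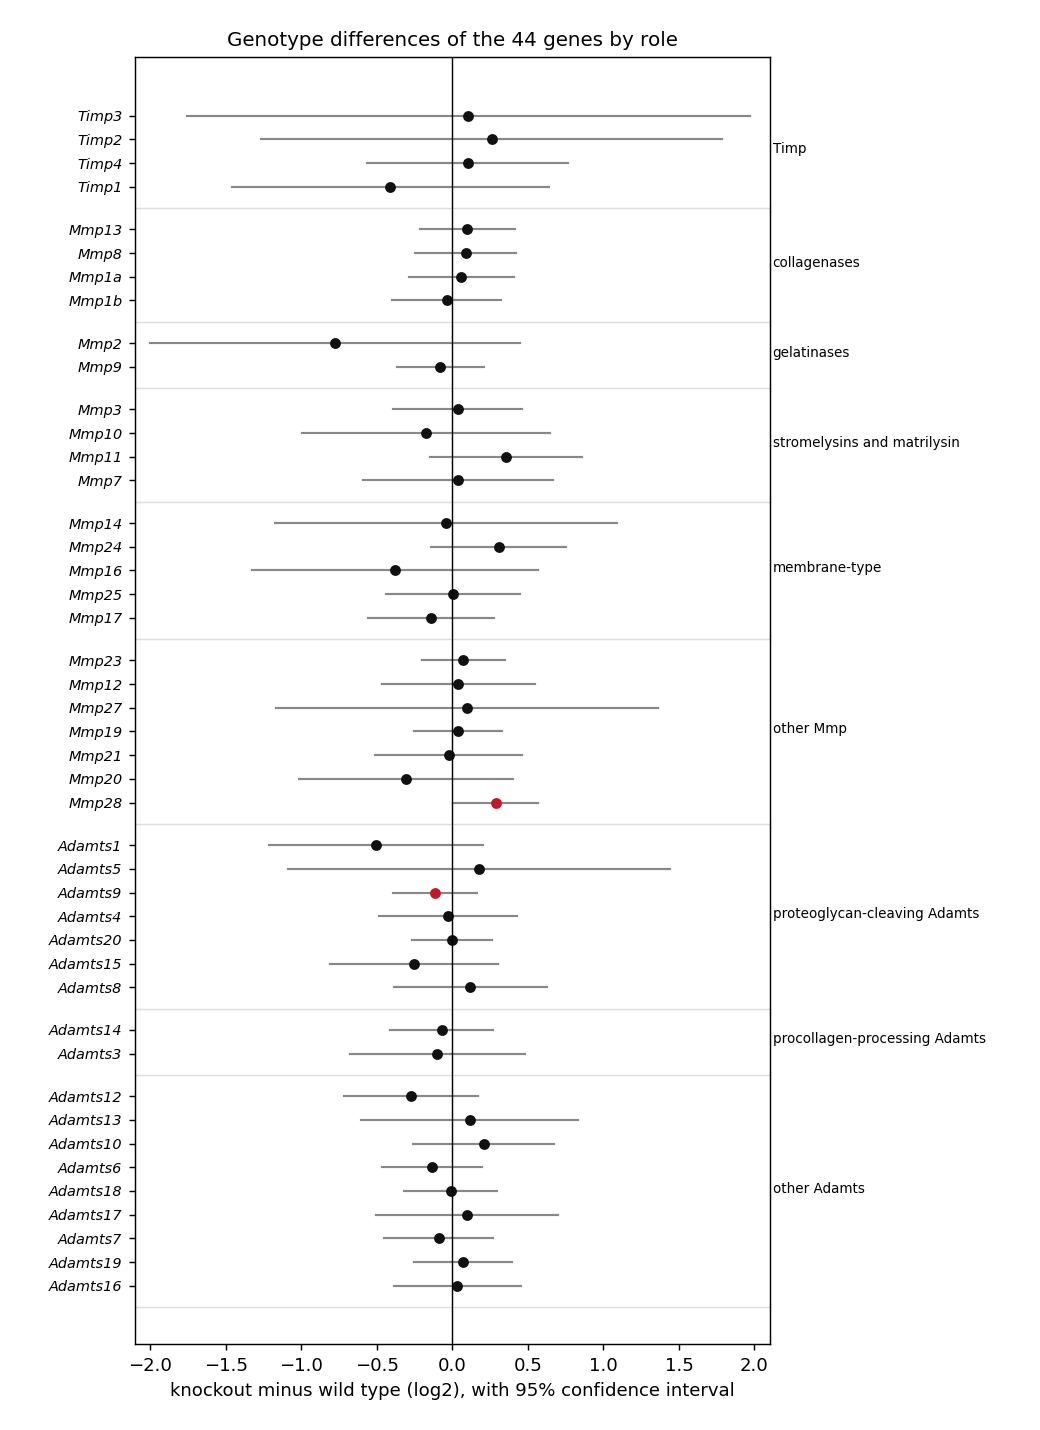
Knockout minus wild type difference (log2, horizontal axis) of each of the 44 genes with its 95% confidence interval in limma, grouped by role, over 4 knockout and 3 wild type arrays. Red points mark Mmp28 and Adamts9, the 2 genes whose genotypes do not overlap; the interval of Mmp28 alone leaves out 0, and the widest intervals belong to Timp3, Timp2, Adamts5, Mmp27 and Mmp2.

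The TIMP genes had the widest spread of any role group, with a median SD of 1.14 within wild type and 0.52 within knockout. Timp1 encodes a secreted inhibitor that is induced in wounds and fibrosis. Its values were 5.07, 5.14 and 3.67 on wild type replicates 1, 2 and 3, and 4.09, 4.29, 3.56 and 4.93 on knockout replicates 1, 2, 3 and 4. All knockout values lay below the values of wild type replicates 1 and 2, while wild type replicate 3 lay among the knockout values. Knockout minus wild type came to -0.41 (SE 0.45, adjusted p = 0.9995 in limma), with a 95% confidence interval of -1.46 to 0.64. Without wild type replicate 3 it was -0.89 with an unadjusted p of 0.0473 and an adjusted p of 0.414, and without wild type replicate 1 it was -0.19.

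Timp2 encodes the inhibitor that also helps MMP14 to activate MMP2 at the cell surface. It was at 7.20, 6.84 and 4.54 on wild type replicates 1, 2 and 3, and at 5.65, 6.55, 6.95 and 6.65 on the 4 knockout arrays in replicate order. Timp3, whose product stays bound to the matrix and also blocks ADAMTS enzymes, was at 8.31, 6.47 and 4.55 in wild type and at 5.95, 6.41, 6.82 and 7.01 in knockout. In both genes wild type replicate 1 was the highest of the 7 arrays and wild type replicate 3 the lowest, with all knockout values between them. The genotype means therefore lay close together, 6.45 ± 0.56 (SD, n = 4) against 6.19 ± 1.44 (SD, n = 3) for Timp2 and 6.55 ± 0.47 against 6.44 ± 1.88 for Timp3. Timp3 had the largest range of the 44 genes, 3.76, and its interval, from -1.76 to 1.97, reached past a 2-fold change in both directions.

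Timp4, the most tissue-restricted TIMP, went the other way across the wild type arrays. Its values were 3.74, 4.33 and 4.95 on wild type replicates 1, 2 and 3 and 4.33, 4.73, 4.43 and 4.27 in knockout. Here wild type replicate 1 was lowest and replicate 3 highest. The difference was 0.10 (SE 0.28). Of the 4 TIMP genes, 3 had a difference above 0. In each of those 3 the sign without wild type replicate 1 was opposite to the sign without wild type replicate 3.

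**Figure D2:**
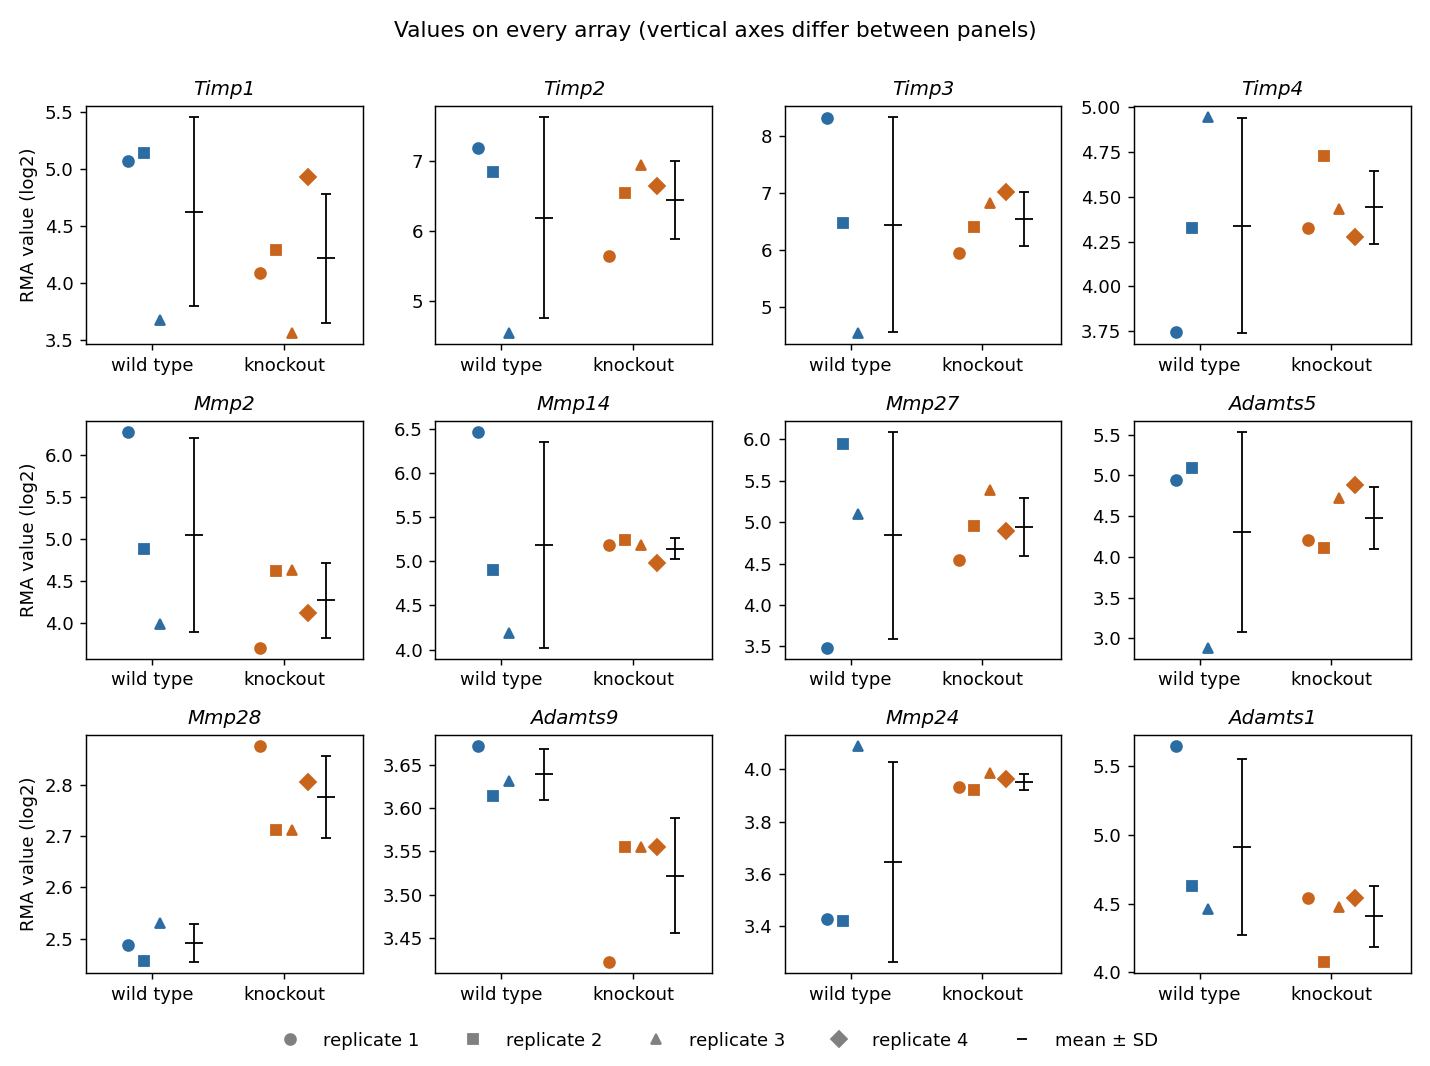
Log2 value (vertical axis, a separate scale in each panel) on each of the 7 arrays for 12 genes, wild type in blue and knockout in orange, with the replicate number as the marker shape and the mean ± SD as a black bar. Wild type replicate 1 is highest and replicate 3 lowest for Timp2, Timp3 and Mmp14, and the reverse holds for Timp4. The genotypes separate only for Mmp28 and Adamts9.

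Among the gelatinases, Mmp2 had the largest difference of the 44 genes, and its size moved with wild type replicates 1 and 3. Mmp2 encodes a type IV collagenase made by fibroblasts. It was at 6.28, 4.88 and 4.00 on wild type replicates 1, 2 and 3 and at 3.71, 4.62, 4.64 and 4.12 in knockout. Wild type replicates 1 and 2 lay above every knockout array and replicate 3 among them. Its difference of -0.78 (SE 0.52, adjusted p = 0.9995 in limma) put knockout at 0.583 times the wild type level, with a 95% confidence interval of -2.0 to 0.44. It was -0.16 without wild type replicate 1, and -1.30 without wild type replicate 3, with an unadjusted p of 0.0264 and an adjusted p of 0.395. Without both it was -0.61. Mmp9, the gelatinase of neutrophils, macrophages and migrating keratinocytes, was at exactly the same value, 3.44, on 5 arrays, at 3.56 on wild type replicate 2 and at 3.27 on knockout replicate 4. Its mean lay below the median of all values and its difference was -0.08 (SE 0.12).

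Mmp14 encodes the membrane-bound activator of MMP2, itself a collagenase. Its values were 6.47, 4.90 and 4.19 in wild type and 5.18, 5.24, 5.18 and 4.98 in knockout. The knockout arrays lay close together (SD 0.11, n = 4), between wild type replicate 1 far above them and wild type replicates 2 and 3 below them. The difference was -0.04 (SE 0.48) over all arrays, 0.60 without wild type replicate 1 (unadjusted p = 0.0316, adjusted p = 0.905) and -0.54 without wild type replicate 3. It turned to 0.22 after quantile normalization again. Mmp14, Timp2 and Timp3 were the 3 of the 44 genes with wild type replicate 1 as the single highest and replicate 3 as the single lowest array, a pattern found in 11.3% of all genes.

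The mean level of the fibroblast markers (Col1a1, Col1a2, Col3a1, Pdgfra, Dcn and Lum) had the same arrays at its ends. On wild type replicates 1, 2 and 3 it was 7.08, 6.89 and 5.61, against 6.34 to 6.86 in knockout. Taken singly, only Col1a1 and Col3a1 were highest on wild type replicate 1 and lowest on replicate 3. Lum and Pdgfra were highest on wild type replicate 2 and Dcn on knockout replicate 3, while Col1a2 was lowest on knockout replicate 1. Of the 6 markers, 5 were above the median of all values. Hair follicle markers were at a mean of 7.80, 5.02 and 4.20 in wild type and 3.51 to 4.71 in knockout, and 7 of the 8 were above that median. Wild type replicate 1 also had the highest and replicate 3 the lowest mean level of the epidermal keratinocyte markers, at 8.53 and 6.91. The same held for the mean of the 5 measured macrophage markers, at 5.67 and 4.58. Single markers of these lists could differ, and Lor was lowest on wild type replicate 1. The part of any of these cell types in the values of Mmp2, Mmp14, Timp2 and Timp3 was not tested.

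The other membrane-type genes showed no common direction. Mmp15, also of this type, was not among the genes found by the symbol rule. Mmp24 encodes a membrane-type enzyme described mainly in the nervous system. It was at 3.43, 3.42 and 4.09 on wild type replicates 1, 2 and 3 and at 3.93, 3.92, 3.99 and 3.96 in knockout. The knockout arrays were almost equal (SD 0.03, n = 4), above wild type replicates 1 and 2 and below replicate 3. The difference was 0.31 (SE 0.19), and it was 0.20 without wild type replicate 1. Without replicate 3 it was 0.53 with an unadjusted p of 0.00237 and an adjusted p of 0.363 in limma, the lowest of the 44 genes in that run. Mmp16 was at 2.60, 3.07 and 4.43 in wild type and at 2.77, 3.07, 3.16 and 2.96 in knockout, so wild type replicate 3 alone stood high. Its difference of -0.38 (SE 0.40) was 0.15 without that array and -0.76 without wild type replicate 1. Mmp17 and Mmp25, membrane-type enzymes anchored by a lipid, differed by -0.14 and 0.0025.

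**Figure D3:**
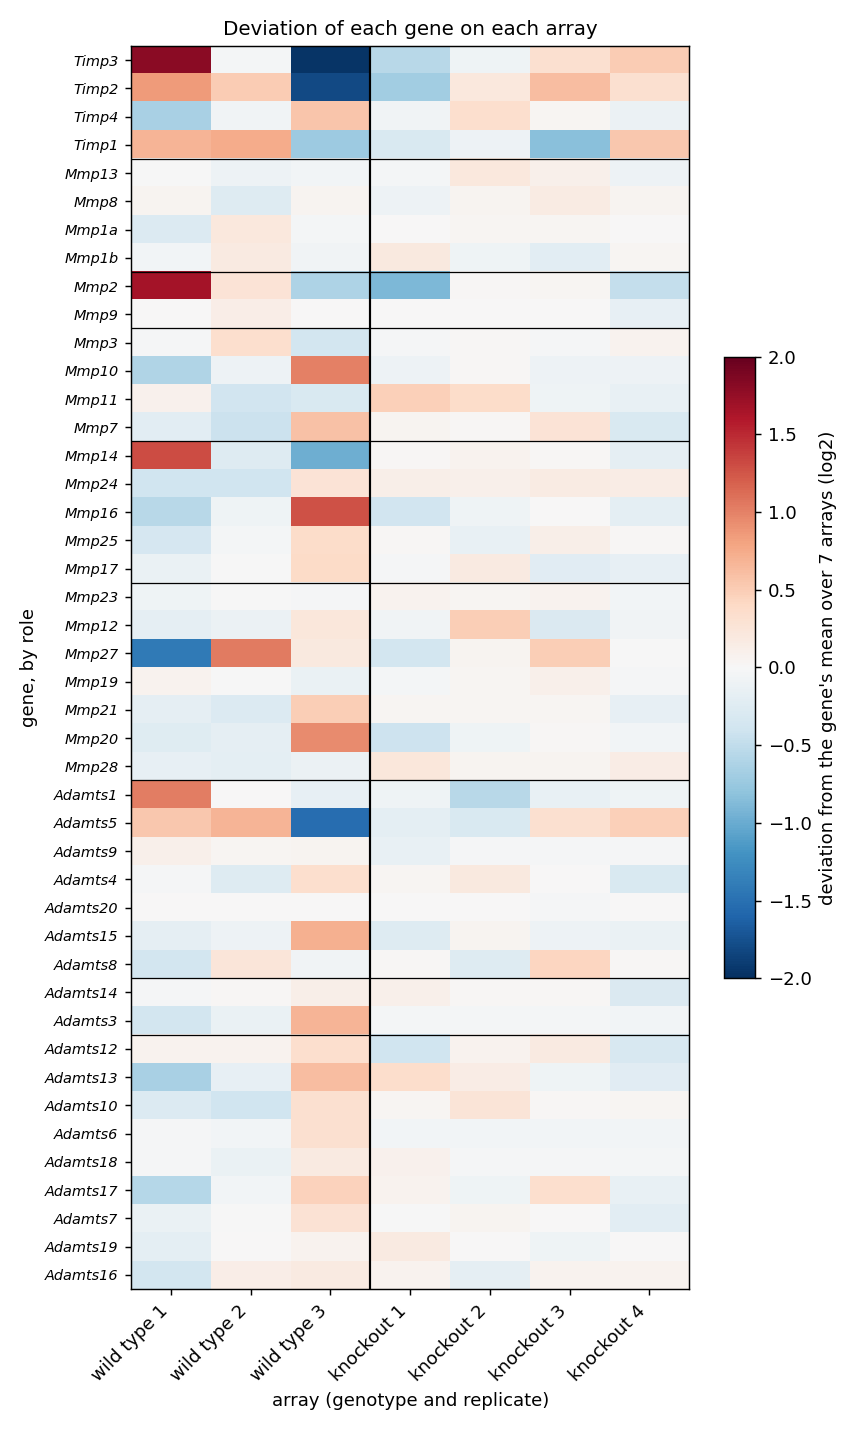
Deviation of each of the 44 genes on each array from the gene's own mean over the 7 arrays (log2, red above and blue below), with genes ordered by role and a vertical line between 3 wild type and 4 knockout arrays. The strongest colours are on wild type replicates 1 and 3, in opposite directions for Timp3, Timp2, Mmp14, Mmp16 and Mmp10.

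Of the 28 genes with a mean at or below the median of all values, wild type replicate 3 was higher than every one of the 5 arrays other than wild type replicates 1 and 3 in 18, which is 64.3%, beside 41.3% of all genes at such levels. Wild type replicate 1 was lower than all of those 5 arrays in 9 of the 28, which is 32.1%, beside 54.6%. Among the 16 brighter genes, wild type replicate 3 was lower than those 5 arrays in 6, which is 37.5%, beside 34.8% of the brighter genes in all. Over all genes the same array deviated in the same direction at the median, by 0.17 in the dimmer genes and by -0.02 in the brighter ones. Within a genotype, the median SD of the 44 genes was 0.33 in wild type and 0.13 in knockout, and the wild type SD was the larger in 75.0% of them, beside 76.9% of all genes.

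In 27 of the 44 genes the sign of the genotype difference without wild type replicate 1 was opposite to the sign without wild type replicate 3, beside 51.2% of all genes. With replicate 3 left out, 5 of the 44 had an unadjusted p under 0.05 (Adamts10, Mmp2, Mmp24, Mmp28 and Timp1), beside 12% of all genes. With replicate 1 left out there were 2 (Mmp14 and Mmp28), beside 3.18%. Mmp28 was the only gene in both sets, and none of the 44 passed the adjusted threshold in either. Over all alternatives, leaving out both arrays and array weights included, the lowest adjusted p of a gene with values given on every array was 0.20, for Mmp24.

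**Figure D4:**
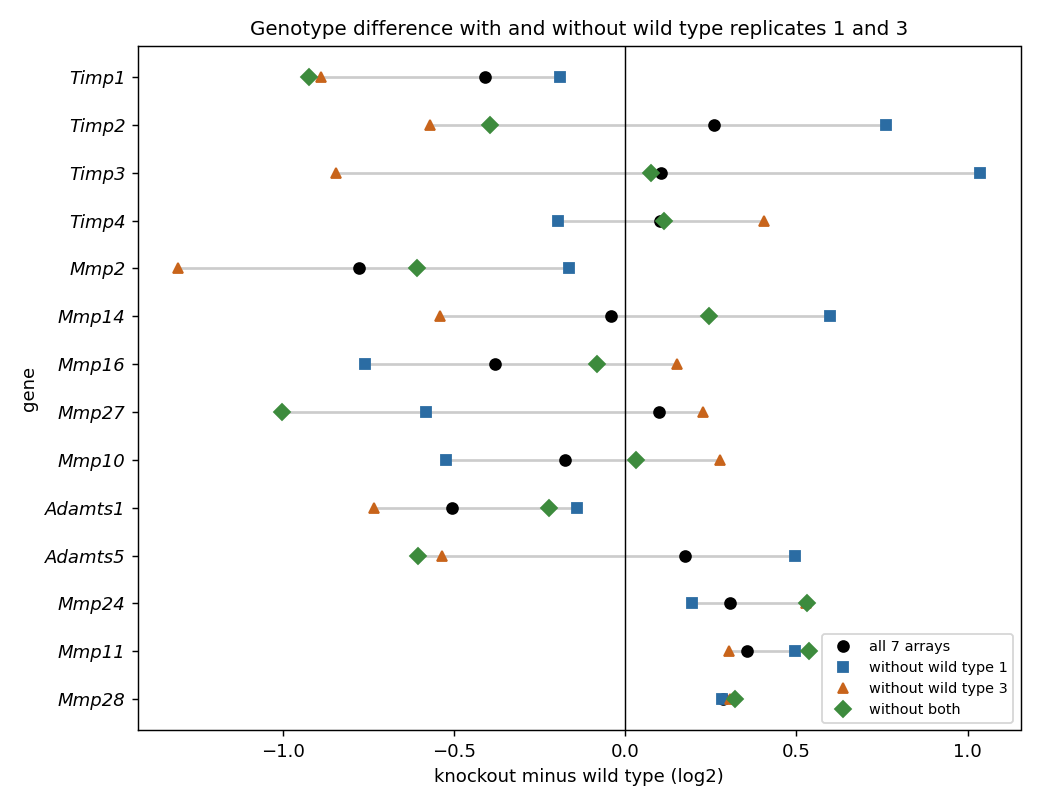
Knockout minus wild type difference (log2, horizontal axis) of 14 genes with all 7 arrays, without wild type replicate 1, without wild type replicate 3 and without both. For Timp2, Timp3, Timp4, Mmp10, Mmp14, Mmp16, Mmp27 and Adamts5 the points without replicate 1 and without replicate 3 lie on opposite sides of 0. The 4 points of Mmp28 lie between 0.28 and 0.32.

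Mmp28, or epilysin, an enzyme of keratinocytes described in intact and healing epidermis, was the 1 gene with all knockout values above all wild type values, a separation in this direction found in 1.1% of all genes. It was at 2.49, 2.46 and 2.53 in wild type and at 2.88, 2.71, 2.71 and 2.81 in knockout. Both groups were narrow, and all values lay below the median of all values. The means were 2.78 ± 0.08 (SD, n = 4) and 2.49 ± 0.04 (SD, n = 3), a difference of 0.29 (SE 0.12) or a 1.22-fold higher value in knockout, with an unadjusted limma p of 0.0483 and an adjusted p of 0.9995. Dropping single arrays gave differences of 0.25 to 0.31, and unadjusted p-values between 0.0379 (wild type replicate 3 dropped) and 0.108 (wild type replicate 2 dropped). Of the 7 runs that left out 1 array, those without wild type replicate 1 or 3 kept the unadjusted p under 0.05. After quantile normalization again the difference was 0.22 (unadjusted p = 0.195), and over all alternatives the adjusted p ran from 0.238 with array weights to 1.0. Epidermal keratinocyte markers had mean levels of 7.65 to 7.88 in knockout, inside the 6.91 to 8.53 of wild type. The part of keratinocytes in the Mmp28 values was not tested.

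The remaining Mmp genes outside the main substrate classes had overlapping genotypes. Mmp12 encodes the elastase of macrophages. It was at 5.06, 5.11 and 5.46 in wild type and at 5.16, 5.72, 4.94 and 5.16 in knockout, with full overlap and a difference of 0.04 (SE 0.22). The 5 measured macrophage markers averaged 5.67, 5.62 and 4.58 across wild type replicates 1, 2 and 3, against 4.92 to 5.34 in knockout. Wild type replicate 3, lowest of the 7 arrays for this average, had the highest Mmp12 value in wild type. Taken singly, the markers Adgre1 and Itgam were lowest on knockout replicate 1. The part of macrophages in the Mmp12 values was not tested. Mmp27, a stromelysin-like enzyme, was at 3.48, 5.94 and 5.10 in wild type and at 4.54, 4.95, 5.39 and 4.89 in knockout. Wild type held both its lowest and its highest value. The difference of 0.10 (SE 0.54) was -0.58 without wild type replicate 1 and 0.23 without replicate 3. Mmp23, a membrane-anchored member without the usual haemopexin-like domain, was among the steadiest, at 5.15, 5.22 and 5.20 in wild type and at 5.30, 5.28, 5.30 and 5.18 in knockout, and its interval of -0.20 to 0.35 was narrow. Mmp19, Mmp20 (the enamel proteinase enamelysin) and Mmp21 differed by 0.04, -0.31 and -0.02.

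The interstitial collagenases, which open the triple helix of fibrillar collagen, all had means below the median of all values. Mmp13, the main collagenase of rodents, was at 2.59, 2.50 and 2.55 in wild type and at 2.56, 2.81, 2.70 and 2.50 in knockout. Mmp8, the collagenase of neutrophil granules, was at 2.40, 2.09 and 2.40 in wild type and at 2.24, 2.40, 2.50 and 2.40 in knockout. Mmp1a was at 1.73, 2.21 and 1.96 in wild type and at 2.02, 2.04, 2.05 and 2.02 in knockout. In these 3 genes the knockout values lay among or close above the wild type values, and with Mmp1b the 4 differences ran from -0.04 to 0.10. All 4 intervals lay within a 2-fold change either way. The neutrophil markers, 4 of 6 above the median of all values, had mean levels of 4.41 to 4.89 in wild type and 4.32 to 5.25 in knockout. The part of neutrophils in the Mmp8 values was not tested.

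Stromelysins cleave proteoglycans, laminin and fibronectin and activate other precursors. Mmp3 was at 4.44, 4.79 and 4.08 in wild type and at 4.44, 4.48, 4.44 and 4.53 in knockout, where all 4 arrays lay between wild type replicates 2 and 3. Its difference was 0.03 (SE 0.18). Mmp10 was at 2.91, 3.39 and 4.51 in wild type and at 3.39, 3.53, 3.39 and 3.39 in knockout. Wild type replicate 3 was highest and replicate 1 lowest, and the difference of -0.18 (SE 0.35) was 0.28 without replicate 3 and -0.52 without replicate 1. Mmp11, a stromal enzyme activated inside the cell by furin, was at 3.29, 2.83 and 2.91 in wild type and at 3.68, 3.58, 3.13 and 3.07 in knockout. It was higher on knockout replicates 1 and 2 than on any wild type array, with a difference of 0.35 (SE 0.21, adjusted p = 0.9995 in limma) and a 95% confidence interval of -0.15 to 0.86. Mmp7, or matrilysin, differed by 0.04 (SE 0.27).

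Of the Mmp genes, 10 are neighbours on chromosome 9, in the order Mmp13, Mmp12, Mmp1b, Mmp3, Mmp1a, Mmp10, Mmp8, Mmp27, Mmp20 and Mmp7 among protein-coding genes of the RefSeq annotation (GRCm38.p6). Several of these genes are known to respond to AP-1, the transcription factor of FOS and JUN proteins, through a site near the start of transcription. Promoter sequences, 250 bases before to 50 after an annotated start, were at hand for 30 of the 44 genes, including all 10 of the cluster. The AP-1 motif TGAGTCA, searched on both strands (TGACTCA on the other), occurred in 7 of the 10 cluster genes and in 0 of the other 20. It occurred in 1607 of all 27025 genes with a window, and in 5.20% of all 32851 promoter windows. The motif TATAAA on the forward strand was found in 8 of the 10 and in 2 of the other 20, beside 2641 of the 27025 genes (8.32% of all windows). The GC box GGGCGG, searched on both strands, was found in 0 of the 10 and in 16 of the other 20. It was found in 10324 of the 27025 genes (35.7% of all windows). A match is a description of these letters and not evidence of binding.

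**Figure D5:**
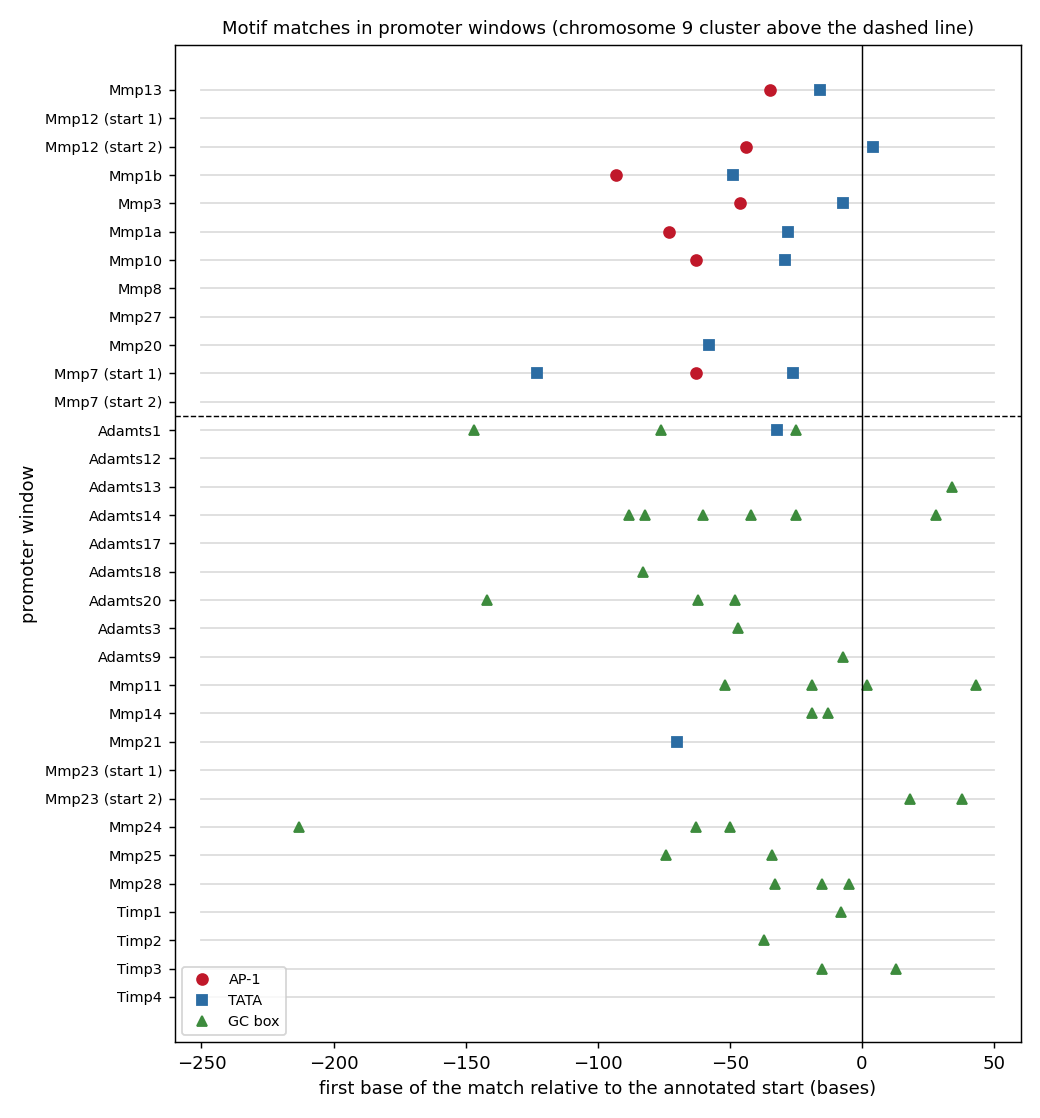
First base of each motif match relative to the annotated start (bases, horizontal axis) in each promoter window of the 30 genes, with the 10 chromosome 9 neighbours above the dashed line. Red circles (AP-1) occur only above the line, in 7 genes, and green triangles (GC box) only below it, in 16.

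The 100 bases before the start are shown for the 7 cluster genes with an AP-1 match, because among the 30 genes the motif was found in these alone. They are RefSeq sequences of GRCm38.p6 written from 5′ to 3′ on the gene's strand, and capitals mark the AP-1 match. Mmp13 lies at chr9:7272414-7272513 (plus strand), Mmp12 at chr9:7347274-7347373 (plus), Mmp1b at chr9:7388027-7388126 (minus), Mmp3 at chr9:7445722-7445821 (plus), Mmp1a at chr9:7464041-7464140 (plus), Mmp10 at chr9:7502242-7502341 (plus) and Mmp7 at chr9:7691990-7692089 (plus).
Mmp13: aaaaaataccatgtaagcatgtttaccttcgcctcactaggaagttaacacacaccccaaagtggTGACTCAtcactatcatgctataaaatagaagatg
Mmp12: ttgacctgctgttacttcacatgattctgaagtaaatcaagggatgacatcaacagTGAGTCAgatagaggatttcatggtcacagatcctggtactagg
Mmp1b: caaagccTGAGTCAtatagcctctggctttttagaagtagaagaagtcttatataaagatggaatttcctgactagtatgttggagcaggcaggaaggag
Mmp3: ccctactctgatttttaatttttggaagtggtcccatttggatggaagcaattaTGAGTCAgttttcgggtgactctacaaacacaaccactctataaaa
Mmp1a: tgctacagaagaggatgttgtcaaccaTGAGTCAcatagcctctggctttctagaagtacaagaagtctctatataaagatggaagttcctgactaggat
Mmp10: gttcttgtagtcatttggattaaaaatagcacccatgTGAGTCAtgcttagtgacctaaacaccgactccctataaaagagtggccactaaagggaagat
Mmp7: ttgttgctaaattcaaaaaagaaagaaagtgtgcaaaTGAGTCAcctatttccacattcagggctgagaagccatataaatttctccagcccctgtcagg

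The match begins 35 bases before the annotated start in Mmp13, 44 in Mmp12, 46 in Mmp3, 63 in Mmp10 and Mmp7, 73 in Mmp1a and 93 in Mmp1b. Mmp12 and Mmp7 each have another annotated start whose window holds no match. The 7 genes with the motif had differences from -0.18 (Mmp10) to 0.10 (Mmp13), and the 3 cluster genes without it, Mmp8, Mmp27 and Mmp20, differed by 0.09, 0.10 and -0.31. The smallest unadjusted p among the 10 was 0.343, for Mmp20.

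For contrast, the 100 bases before the start of Mmp28, the gene whose genotypes separated in the higher direction, are at chr11:83463041-83463140 (GRCm38.p6, minus strand), with capitals marking the GC boxes that lie whole within them (GGGCGG or, on the other strand, CCGCCC). Another GC box begins 5 bases before the start and runs past the end of the stretch.
Mmp28: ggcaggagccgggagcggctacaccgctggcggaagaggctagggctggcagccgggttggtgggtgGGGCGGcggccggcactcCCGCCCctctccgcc

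Among the ADAMTS genes that cleave proteoglycans, Adamts9 was the 1 with groups that did not overlap, by a small amount. Adamts9, a versican-cleaving enzyme, was at 3.67, 3.61 and 3.63 in wild type and at 3.42, 3.56, 3.56 and 3.56 in knockout, with exactly the same value on knockout replicates 2, 3 and 4. All wild type arrays were higher, as in 0.815% of all genes, and the difference was -0.12 (SE 0.12, unadjusted p = 0.353 and adjusted p = 0.9995 in limma). Adamts1, which cuts versican and aggrecan, was at 5.65, 4.63 and 4.46 in wild type and at 4.54, 4.07, 4.48 and 4.54 in knockout. Wild type replicate 1 stood well above the other 6 arrays. The difference of -0.51 (SE 0.30) was -0.14 without that array and -0.73 without replicate 3. Adamts5, an aggrecanase and versicanase, was at 4.95, 5.08 and 2.89 in wild type and at 4.21, 4.10, 4.72 and 4.89 in knockout. Here wild type replicate 3 alone was low, and the difference of 0.17 (SE 0.54) was -0.53 without it and 0.50 without replicate 1. Adamts4, Adamts8, Adamts15 and Adamts20 differed by -0.030, 0.12, -0.25 and -0.0047, and Adamts20, an enzyme of melanoblast migration, had the same value, 3.01, on 6 arrays.

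Procollagen-processing ADAMTS enzymes remove the amino-terminal propeptide before fibrils form. Adamts2, also of this class, was not among the genes found by the symbol rule. Adamts14 was at 3.23, 3.29 and 3.38 in wild type and at 3.36, 3.29, 3.29 and 2.97 in knockout. Adamts3, which also processes a lymphangiogenic growth factor, was at 2.23, 2.46 and 3.27 in wild type and at 2.56, 2.56, 2.56 and 2.53 in knockout. Groups overlapped in both genes, with differences of -0.07 (SE 0.14) and -0.10 (SE 0.25). Wild type replicate 3 was the highest array for each.

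The other 9 ADAMTS genes had differences from -0.28 to 0.21, 5 above 0 and 4 below, and all 9 intervals lay within a 2-fold change either way. Adamts12, a cartilage oligomeric matrix protein-cleaving enzyme, was at 4.00, 4.00 and 4.27 in wild type and at 3.54, 4.00, 4.10 and 3.60 in knockout, a difference of -0.28 (SE 0.19). Adamts10, which binds fibrillin microfibrils, was at 3.22, 3.09 and 3.82 in wild type and at 3.53, 3.74, 3.52 and 3.53 in knockout. Its knockout arrays lay above wild type replicates 1 and 2 and below replicate 3, as in Mmp24. The difference of 0.21 (SE 0.20) was 0.13 without wild type replicate 1. Without replicate 3 it was 0.43 (unadjusted p = 0.0147, adjusted p = 0.376 in limma). Adamts13, the von Willebrand factor-cleaving enzyme, was at 3.02, 3.51 and 4.29 in wild type and at 4.03, 3.82, 3.59 and 3.45 in knockout, a difference of 0.12 (SE 0.31). Adamts6, Adamts7, Adamts16, Adamts17, Adamts18 and Adamts19 differed by -0.14 to 0.10.

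Exactly repeated values were common in these genes. In 14 of the 44 the same value stood on at least 3 arrays, beside 27.0% of all genes. In Adamts6 all 4 knockout arrays and wild type replicate 2 were at 3.41, so its knockout SD was 0.

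The related genes outside the family gave a like picture. Of 70 measured genes in 7 lists, 0 passed the adjusted threshold, beside 0.00431% of all genes. An unadjusted p under 0.05 was found for 1 of the 70, beside 1.88% of all genes. The median difference was -0.05, beside 0.0096 over all genes. Genotypes did not overlap in 2 of the 70, or 2.86%, beside 1.91% of all genes, and 28 of the 70 differences, or 40.0%, were above 0, beside 51.7%. Among activators and inhibitors outside the family, 9 of 11 were lower in knockout with a median of -0.27. That median was -0.17 without wild type replicate 1 (7 of 11 lower), -0.66 without replicate 3 (8 of 11) and -0.049 without both (6 of 11). Thbs2 encodes thrombospondin 2, which clears MMP2 by uptake into cells. It was at 5.02, 4.68 and 4.25 in wild type and at 4.01, 4.25, 3.91 and 4.00 in knockout. Only wild type replicate 3 and knockout replicate 2 met, at an equal value, with a difference of -0.61 (SE 0.20, unadjusted p = 0.0196 and adjusted p = 0.9995 in limma), and 0.854% of all genes were lower at an unadjusted p under 0.05. Thbs1, an activator of latent TGF-beta, was at 4.88, 3.385 and 3.75 in wild type and at 3.32, 3.378, 3.19 and 3.27 in knockout. Its groups did not overlap, with wild type replicate 2 just above knockout replicate 2. The difference of -0.72 (SE 0.33) was -0.28 without wild type replicate 1 and -0.84 without replicate 3.

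Of the 17 measured inducers of metalloproteinase genes, cytokines and AP-1, ETS and NF-kB factors, 12 were lower in knockout, with a median of -0.070. That median was -0.14 without wild type replicate 1, -0.10 without replicate 3 and -0.061 without both. Fosl2, which encodes the AP-1 subunit FRA2, was at 5.61, 4.08 and 4.17 in wild type and at 3.85, 3.94, 3.71 and 3.92 in knockout. All knockout values were lower, as in 0.815% of all genes. The difference of -0.77 (SE 0.36, unadjusted p = 0.0721 in limma) was -0.27 without wild type replicate 1 and -0.99 without replicate 3. Fos differed by -0.32 (SE 0.16).

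In the other lists no gene passed at an unadjusted p of 0.05. Among 16 other metzincins, zinc proteinases of the same clan, 6 were higher and 10 lower, but 3 were higher without wild type replicate 1 and 10 without replicate 3. Bmp1, a procollagen C-proteinase, was at -0.48 (SE 0.24), and at -0.20 and -0.57 without wild type replicates 1 and 3. The sheddase Adam9 was at -0.52 (SE 0.29), and at -0.30 and -0.87 without wild type replicates 1 and 3. Of 7 ADAMTS-like genes, which lack a catalytic domain, 3 were higher, with 6 higher when wild type replicate 3 was left out. Adamtsl1 was at -0.29 (SE 0.15). Adamtsl5 was at 0.29 (SE 0.20), and at 0.14 and 0.41 without wild type replicates 1 and 3.

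Among 6 measured genes of plasminogen activation 5 were higher, and 3 when either wild type replicate 1 or 3 was left out. Plaur, the urokinase receptor, was at 0.25 (SE 0.16). Serpinb2, a plasminogen activator inhibitor, was at 0.30 (SE 0.51), but at 0.50 and -0.29 without wild type replicates 1 and 3 and at -0.48 without both. Among 8 proteoglycan substrates 5 were higher, and 4 without wild type replicate 1 or 3. Vcan, or versican, was at -0.52 (SE 0.38), and at -0.29 and -1.04 without wild type replicates 1 and 3, while Fmod, or fibromodulin, was at 0.23 (SE 0.20). Among 5 genes of lysosomal collagen turnover, the proteinase Ctsb was at -0.87 (SE 0.65), which was -0.026 without wild type replicate 1 and -1.46 without replicate 3. Mrc2, a collagen uptake receptor, was at 0.13 (SE 0.24), but at -0.14 without wild type replicate 1 and at 0.36 without replicate 3.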

How the data were processed

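Total RNA from 7 skin samples was hybridised to Affymetrix arrays, 1 array a sample, per the labels. The authors deposited log2 values made with RMA, per the submitters' processing notes; its version, the genome build and how probe sets were defined are not given in the sources used here. In all, the deposited table held 25206 probe sets, of which 23185 had 1 gene symbol, 0 had several and 2021 were unnamed here. RMA summarises probes by median polish, which can return exactly equal values. The number of arrays limits the precision.

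Genotypes were compared with limma 3.58.1 (R 4.3.3; lmFit and eBayes, two-sided, 2 groups, no covariates) on the values as deposited, with Benjamini-Hochberg adjustment over the 23185 genes and a threshold of 0.05. The procedure was tested on simulated data that had the same spread in both genotypes. That test does not cover the wider spread of the wild type arrays. Values on every array are given for the TIMP genes, up to 3 genes per role with the highest mean, genes with an unadjusted p under 0.05 or groups that do not overlap, the 5 largest differences and the 3 largest ranges; up to 2 genes with the smallest p are given per related list. The members and lists were chosen with earlier results of these data known. The alternatives were moderation with an intensity trend, filters on dim genes, quantile normalization, centring, array weights, blocks, all probe sets, and leaving out arrays. Tables and figures were made with Python 3.11.15 and matplotlib 3.10.9.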

Additional observations from a re-analysis of the deposited data

Results flagged for a closer look

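In 11 of the 43 genes whose knockout values were not all equal, 1 knockout array stood apart from the other 3 by Dixon's test at the 95% level, which for untied values chance gives about 1 time in 20. In 7 of the 11 the other 3 arrays had exactly the same value, so the ratio is at its maximum by construction. For these 7 (Adamts3, Adamts9, Adamts16, Adamts20, Mmp9, Mmp10 and Mmp21) the test says nothing. Of the 36 genes with more than 2 distinct values, 4 stood apart in this way, or 11.1%, beside 12.7% of all such genes.

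On knockout replicate 2, Adamts1 was low at 4.07, Adamts16 was low at 2.37, Adamts10 was high at 3.74 and Mmp10 was high at 3.53. On knockout replicate 4, Mmp9 was low at 3.27, Mmp21 at 3.21, Mmp23 at 5.18 and Adamts3 at 2.53. On knockout replicate 1, Adamts9 was low at 3.42 and Adamts18 was high at 3.26. Adamts20 was low at 2.99 on knockout replicate 3, against 3.01 on the other knockout arrays. In Adamts9 the other 3 knockout arrays, at 3.56, were also below the lowest wild type value of 3.61. The wild type group, with 3 arrays, was not tested this way.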

How the results depend on the processing

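No gene of the 44 passed the adjusted threshold under any alternative. The number with an unadjusted p under 0.05 (1 as reported) was 0 after quantile normalization or centring, and with a replicate block or a block on the suffix of the sample codes. Without the dimmest 30% or 50% of genes it was also 0, because both filters removed Mmp28 from the fit. It was 8 with array weights, beside 13% of all genes, and 6 without wild type replicates 1 and 3, beside 8.73%, where the lone wild type array is assumed to vary like the knockout arrays, and it ran from 0 to 5 with 1 array left out. Without the dimmest 30% or 50% of genes, 32 and 16 of the genes entered the fit. Of the 70 related genes, those at that threshold (1 as reported) numbered 8 with array weights, beside 13% of all genes. With the replicate block there were 0, beside 1.08%. With 1 array left out they ran from 0 without knockout replicate 3, beside 1.12%, to 7 without wild type replicate 3, beside 12%. Genotypes did not overlap in 1 gene after quantile normalization and after centring, where the share of all genes is not given here. They did not overlap in 1 gene, Adamts9, without the dimmest 30% and in 0 without the dimmest 50%. The filters had removed first Mmp28 and then Adamts9. The count was 21 without both wild type arrays, beside 37.5% of all genes, and 2 to 10 with 1 left out. Without the dimmest 50%, 11 of 16 differences were above 0, and the share of all genes is not given here. The median there was 0.056, beside -0.026 over all genes in that fit. Leaving out 1 array gave 13 to 28 differences above 0. The 13 were without wild type replicate 1, beside 46.1% of all genes, and the 28 without replicate 3, beside 58.9%. The median difference ran from -0.089 to 0.076 between those runs, beside -0.019 and 0.078 over all genes. Beyond the removal of genes by the dim filters, the cause of these moves was not tested.

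Same-numbered samples of the genotypes did not deviate together (correlations of -0.086, -0.15 and 0.034), so the replicate block rests on a shared number only; with it 1.08% of all genes had an unadjusted p under 0.05. The default estimate of array weights did not converge, and gene-by-gene estimates were used.

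Of 442 recomputed differences of the 27 genes with values on every array, 400 kept their sign and 42 reversed, and 12 genes kept it throughout. Reversed values were, after quantile normalization, -0.014 for Mmp1a and 0.22 for Mmp14; with array weights, 0.067 for Adamts3, -0.51 for Adamts5, -0.15 for Mmp1a, -0.27 for Mmp3, 0.0060 for Mmp10, 0.22 for Mmp14, -0.82 for Mmp27 and -0.28 for Timp2. With the replicate block they were 0.015 for Adamts14, 0.013 for Mmp14 and -0.051 for Timp3, and -0.057 for Mmp27 under the code suffix block. Without wild type replicates 1 and 3 they were 0.096 for Adamts3, -0.60 for Adamts5, -0.19 for Mmp1a, -0.32 for Mmp3, 0.033 for Mmp10, 0.24 for Mmp14, -1.0 for Mmp27 and -0.39 for Timp2. With 1 array left out, differences that changed sign ran from -0.18 to 0.46 for Adamts13, -0.12 to 0.015 for Adamts14, -0.31 to 0.21 for Adamts3, -0.53 to 0.56 for Adamts5, -0.52 to 0.28 for Mmp10, -0.12 to 0.17 for Mmp12, -0.54 to 0.60 for Mmp14, -0.76 to 0.15 for Mmp16, -0.058 to 0.18 for Mmp1a, -0.58 to 0.65 for Mmp27, -0.14 to 0.21 for Mmp3, -0.012 to 0.14 for Mmp8, -0.57 to 0.76 for Timp2, -0.84 to 1.04 for Timp3 and -0.20 to 0.41 for Timp4.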
